A study of Homo sapiens with 60 samples.

Results

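The ethanol extract of Guibi-tang, a multi-herb formula, was compared with the ethanol extract of Aucklandiae Radix, the dried root of Aucklandia, at the high dose of each. Both were given for 24 h to SW1783, an established human astrocytoma cell line. The comparison rests on 5 of the 60 libraries of the series, 3 of Guibi-tang at 500 µg/mL (replicates 1, 2 and 3) and 2 of Aucklandiae Radix at 160 µg/mL (replicates 2 and 3). The libraries were chosen by extract and dose, and no measured value entered the choice. The low doses, 3 libraries at 20 µg/mL and 2 at 6.4 µg/mL, were used to remove differences between library sets, and the medium doses, 3 at 100 µg/mL and 2 at 32 µg/mL, as further libraries. The vehicle group of 3 libraries received DMSO with no extract. Whether replicates came from separate cultures is not stated, so p-values measure only the spread between libraries of a group. That spread was pooled over all 60 libraries of the series in the same fit, and it may be technical.

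By the textbook recipe Aucklandiae Radix is an ingredient of Guibi-tang. The labels do not state this, and how much of it the formula's extract held is not known here. The doses differed, because the series text sets the high dose by growth inhibition for the more potent extracts. The library names also place the 2 extracts in different sets, 13 for Guibi-tang and 11 for Aucklandiae Radix. Extract, dose and library set therefore cannot be told apart in a direct comparison of the high doses. For this reason a difference was counted only where both of the following contrasts called it in the same direction at an adjusted p under 0.05. The contrasts were the difference between the high doses (the direct difference) and that between the high-minus-low changes of the extracts (the difference of changes), in which a set difference common to both doses cancels. Such a difference is termed kept below. Extract and dose cannot be told apart in a kept difference either, and a set difference present at the high dose only would remain in it. The contrasts share the 5 high-dose libraries and are not independent tests.

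Aucklandia root is known for sesquiterpene lactones, thiol-reactive compounds that act on cells as electrophiles. Electrophiles and shortages of amino acids are sensed by stress pathways that end in transcription factors. NRF2 drives genes of antioxidant defence, and ATF4, the effector of the integrated stress response, drives amino acid synthesis, amino acid transport and the charging of transfer RNA. Genes of cell division follow a separate programme, in which late cell cycle genes are repressed when cells leave the cycle.

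Library totals were 21378401 to 27413199 expected counts at the high dose of Guibi-tang and 22408452 to 23617681 at that of Aucklandiae Radix. The 3 Guibi-tang high libraries stood apart in scale, with TMM factors, which correct for the makeup of a library, of 1.28 to 1.32 against 0.996 to 1.03 in Aucklandiae Radix high and 0.931 to 1.04 in the low and medium libraries of both extracts and in vehicle. They also read long transcripts more strongly, with length slopes of 0.108 to 0.117 (log2 CPM per doubling of transcript length, against vehicle) where the Aucklandiae Radix high libraries had -0.051 and -0.033. These traits were not particular to Guibi-tang. Polygalae Radix high, of another extract in set 11, had TMM factors of 1.17 and 1.27 and slopes of 0.128 and 0.131. Replicate 2 of Guibi-tang low stood apart from its group, with a slope of -0.098. Without it, 1998 kept genes were higher and 2661 lower with Guibi-tang, against 2251 and 2925 with it. The 2 Aucklandiae Radix high libraries also differed from each other, with a chi-square of counts per degree of freedom of 24.5. Pairs of Guibi-tang high libraries had 4.02 to 7.06, the Aucklandiae Radix low pair 6.19, and pairs of Guibi-tang low 5.74 to 45.5. Mitochondrial shares of counts in Aucklandiae Radix high were 7.15% and 4.09%. Levels below are counts scaled by library size and TMM factor (CPM), which compare a gene between libraries but not genes with each other.

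At the high doses 5176 of 18601 tested genes (27.8%) differed between the extracts by both contrasts. Of these 2251 (12.1%) were higher with Guibi-tang and 2925 (15.7%) were lower. The direct difference alone called 8360 genes (44.9%), 3992 higher (21.5%) and 4368 lower (23.5%), and the difference of changes called 2296 higher (12.3%) and 2943 lower (15.8%). Between the low doses edgeR called 0 genes, 271 lay at an unadjusted p under 0.05, and DESeq2 called 0 with 229 at an unadjusted p under 0.05. Both 271 and 229 are fewer of the 18601 genes than a threshold of 0.05 would pass with no true difference. The 0 calls therefore do not show that the library sets are alike. The low-dose log2 difference was under 0.5 in size in 97.9% of kept genes. The rule itself favours this, since the low doses enter the difference of changes, so the share is no separate check of the library sets.

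The split between higher and lower calls depended on the scaling. With library totals in place of TMM the median direct log2 difference of all genes moved from 0.06 to 0.42, a shift of 0.36, and the kept genes became 4495 higher and 1551 lower, so the share of higher calls went from 43.5% to 74.3%. Directions below are relative to the TMM scale, and a list is named where its median direct log2 difference changes sign with library totals. The medians of the other contrasts also changed sign in some lists, and not all of these are named. With RLE size factors 2270 genes were kept higher and 2913 lower.

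The changes from low to high dose were then read for each kept gene. Guibi-tang had 3 libraries a dose and Aucklandiae Radix 2, so a change of equal size is called less readily with Aucklandiae Radix. A gene without a call may still have changed, and the counts of the 2 extracts are not of equal power. Guibi-tang changed 9892 genes (53.2%), of which 4567 rose (24.6%) and 5325 fell (28.6%). Aucklandiae Radix changed 4647 (25%), of which 2013 rose (10.8%) and 2634 fell (14.2%). Among the 2251 genes kept higher, 1119 rose with Guibi-tang without a call for Aucklandiae Radix, and 470 fell with Aucklandiae Radix without a call for Guibi-tang. A further 223 rose with Guibi-tang and fell with Aucklandiae Radix, 210 fell with both, 156 rose with both, and 73 had no call in either. Among the 2925 genes kept lower, 1820 fell with Guibi-tang without a call for Aucklandiae Radix, and 306 rose with Aucklandiae Radix without a call for Guibi-tang. A further 295 fell with Guibi-tang and rose with Aucklandiae Radix, 356 fell with both, 74 rose with both, and 74 had no call. The genes moved in opposite directions thus numbered 518 (2.78%). These low-to-high contrasts of the extracts share no library. Across 11609 genes whose mean log2 CPM was 2 or more, their log2 fold changes had a Pearson r of 0.47, a description of genes that share the same libraries and are not replicates.

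**Figure D1:**
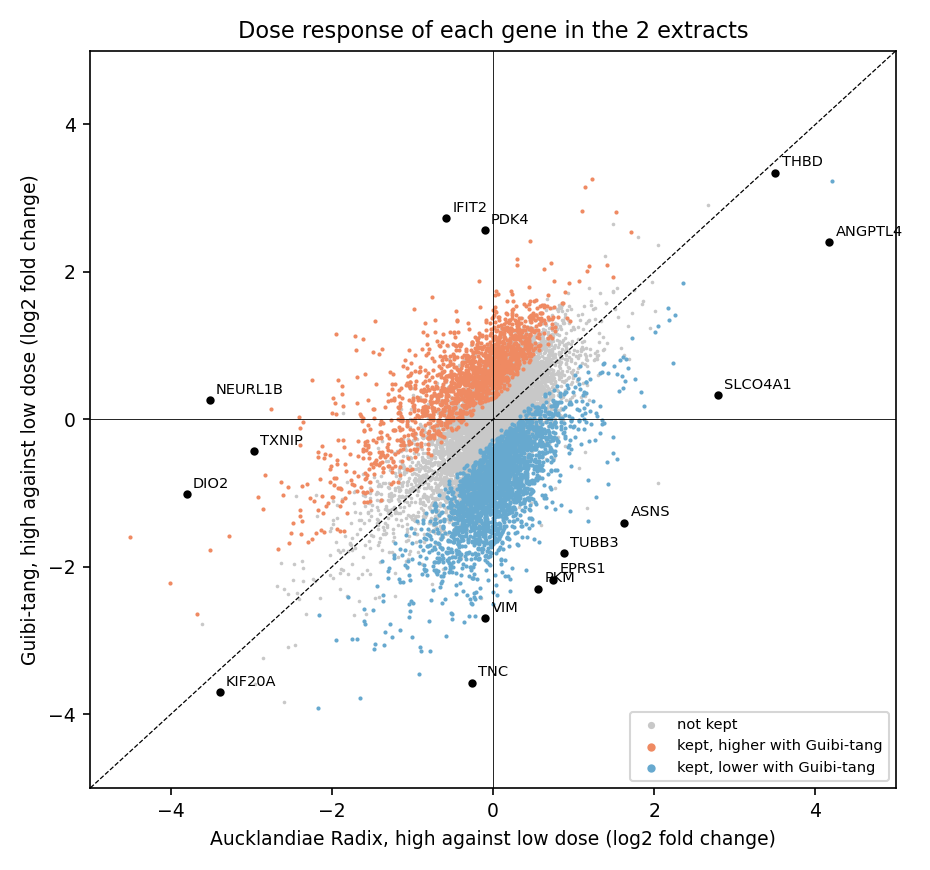
Each point is a gene whose mean log2 CPM was 2 or more, placed by its high-against-low log2 fold change with Aucklandiae Radix (horizontal) and with Guibi-tang (vertical); orange genes were kept higher and blue genes kept lower with Guibi-tang, and the dashed line marks equal changes. 1 gene lies beyond the axes and is not drawn. ASNS and EPRS1 lie in the quadrant of a fall with Guibi-tang and a rise with Aucklandiae Radix, and THBD and KIF20A lie near the dashed line.

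Abundant transcripts were lower with Guibi-tang more often than scarce ones. The median direct log2 difference in 5 equal bins of mean abundance was 0.41, 0.33, 0.15, -0.06 and -0.40 from the lowest to the highest bin. In the highest bin 38.9% of genes were kept lower and 6.21% higher. The median change from low to high dose in that bin was -0.42 with Guibi-tang and -0.01 with Aucklandiae Radix. Most members of several lists below lie in this bin, so their counts stand beside these shares, and the part of abundance in them was not tested.

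**Figure D2:**
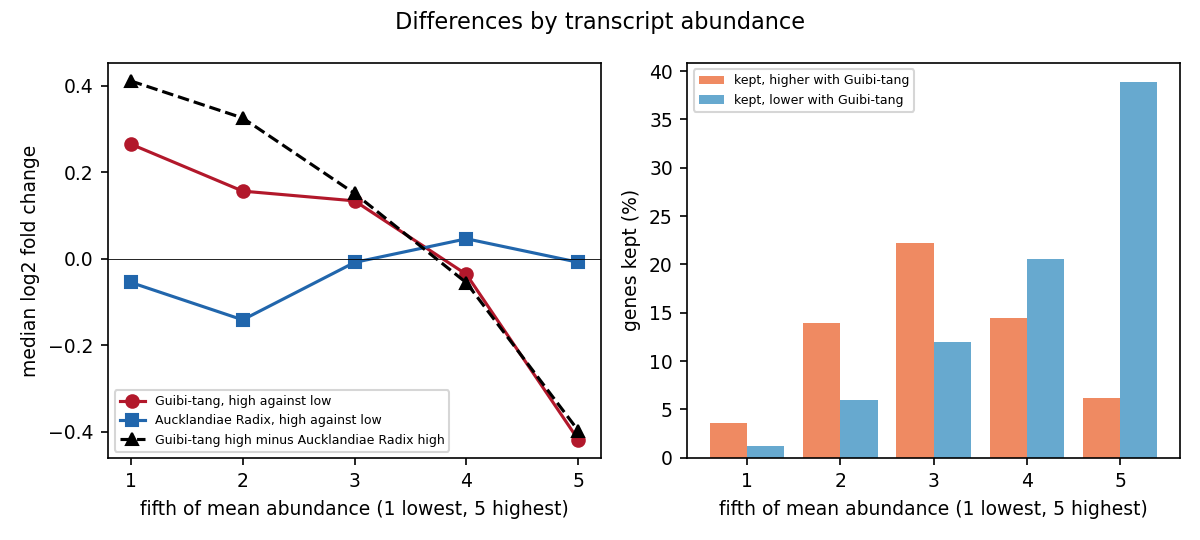
Left, the median log2 fold change of genes in each of 5 equal bins of mean abundance for Guibi-tang high against low, Aucklandiae Radix high against low, and the direct difference of the high doses; right, the percent of genes in each bin kept higher (orange) or lower (blue) with Guibi-tang. The direct difference runs from 0.41 in the lowest bin to -0.40 in the highest, and the kept lower share reaches 38.9% there.

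Among the 10 genes with the largest direct difference in each direction, NEURL1B led those higher with Guibi-tang. Of these 10, 9 fell with Aucklandiae Radix, and IFIT2, not called there, rose with Guibi-tang. NEURL1B, which encodes a ubiquitin ligase of the Notch pathway (chr5:172641266-172691540, GRCh38, GENCODE 29), was at 16.2, 19.4 and 19.3 CPM in the Guibi-tang high libraries and 1.49 and 1.04 CPM in the Aucklandiae Radix high libraries. It was at 16.2, 14.6 and 15.1 CPM at the low dose of Guibi-tang and 13.1 and 15.9 CPM at that of Aucklandiae Radix. The Aucklandiae Radix high libraries alone are low among these 10. The direct log2 difference was 3.85 (SE 0.21, adjusted p = 1.74e-18) by edgeR's quasi-likelihood test, and the difference of changes was 3.78 (SE 0.26, adjusted p = 7.94e-15). DIO2, the enzyme that activates thyroid hormone, fell with both extracts, to 20.3, 18.8 and 19.5 CPM with Guibi-tang and 2.38 and 2.74 CPM with Aucklandiae Radix from 34.4 to 41.99 CPM at the low doses, with a direct log2 difference of 2.93 (SE 0.22, adjusted p = 1.36e-13).

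GUCY1A2, a subunit of soluble guanylate cyclase, had a direct log2 difference of 2.94 (SE 0.47, adjusted p = 1.27e-06), and that of AMIGO1, a neuronal adhesion protein, was 2.65 (SE 0.18, adjusted p = 6.02e-15). CREG2, TCIM and FBXO43 had direct log2 differences of 2.74, 2.76 and 2.51. All 5 were at lower CPM in both Aucklandiae Radix high libraries than in any of the 3 Guibi-tang high libraries, which was a condition of their choice. HCP5, a non-coding gene of the HLA region, fell with both extracts, to 1.60, 1.79 and 1.88 CPM and to 0.213 and 0.174 CPM, the latter from counts of 5 and 4.

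In the other direction TNC led. It encodes tenascin C, a matrix glycoprotein of gliomas (chr9:115019578-115118257). Its level was 52.96, 49.6 and 54.6 CPM with Guibi-tang high and 543 and 529 CPM with Aucklandiae Radix high, against 705, 468 and 698 CPM and 607 and 682 CPM at the low doses. The Guibi-tang high libraries alone are low. The direct log2 difference was -3.36 (SE 0.32, adjusted p = 5.46e-11), and the change with Aucklandiae Radix was -0.26 (SE 0.35, adjusted p = 0.662). SLCO4A1, an organic anion transporter, rose with Aucklandiae Radix, to 69.7 and 77.8 CPM from 11.2 and 10.1 CPM, and rose less with Guibi-tang, to 11.98, 11.6 and 10.5 CPM from 10.2, 8.34 and 8.42 CPM, with a log2 change of 0.33 (SE 0.10, adjusted p = 0.00561). Its direct log2 difference was -2.70 (SE 0.11, adjusted p = 1.74e-22). EIF3CL had the most negative value, but it is a near-identical copy of EIF3C whose reads the counting could split. Its level ran from 5.35 to 31.2 CPM between the 2 Aucklandiae Radix high libraries, so its difference is uncertain.

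Lists of genes with a known shared role were then read member by member. A list is described by how many tested members were kept higher or lower, beside 12.1% and 15.7% of all genes, and by its median, beside a median direct log2 difference of 0.06 over all genes.

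**Figure D3:**
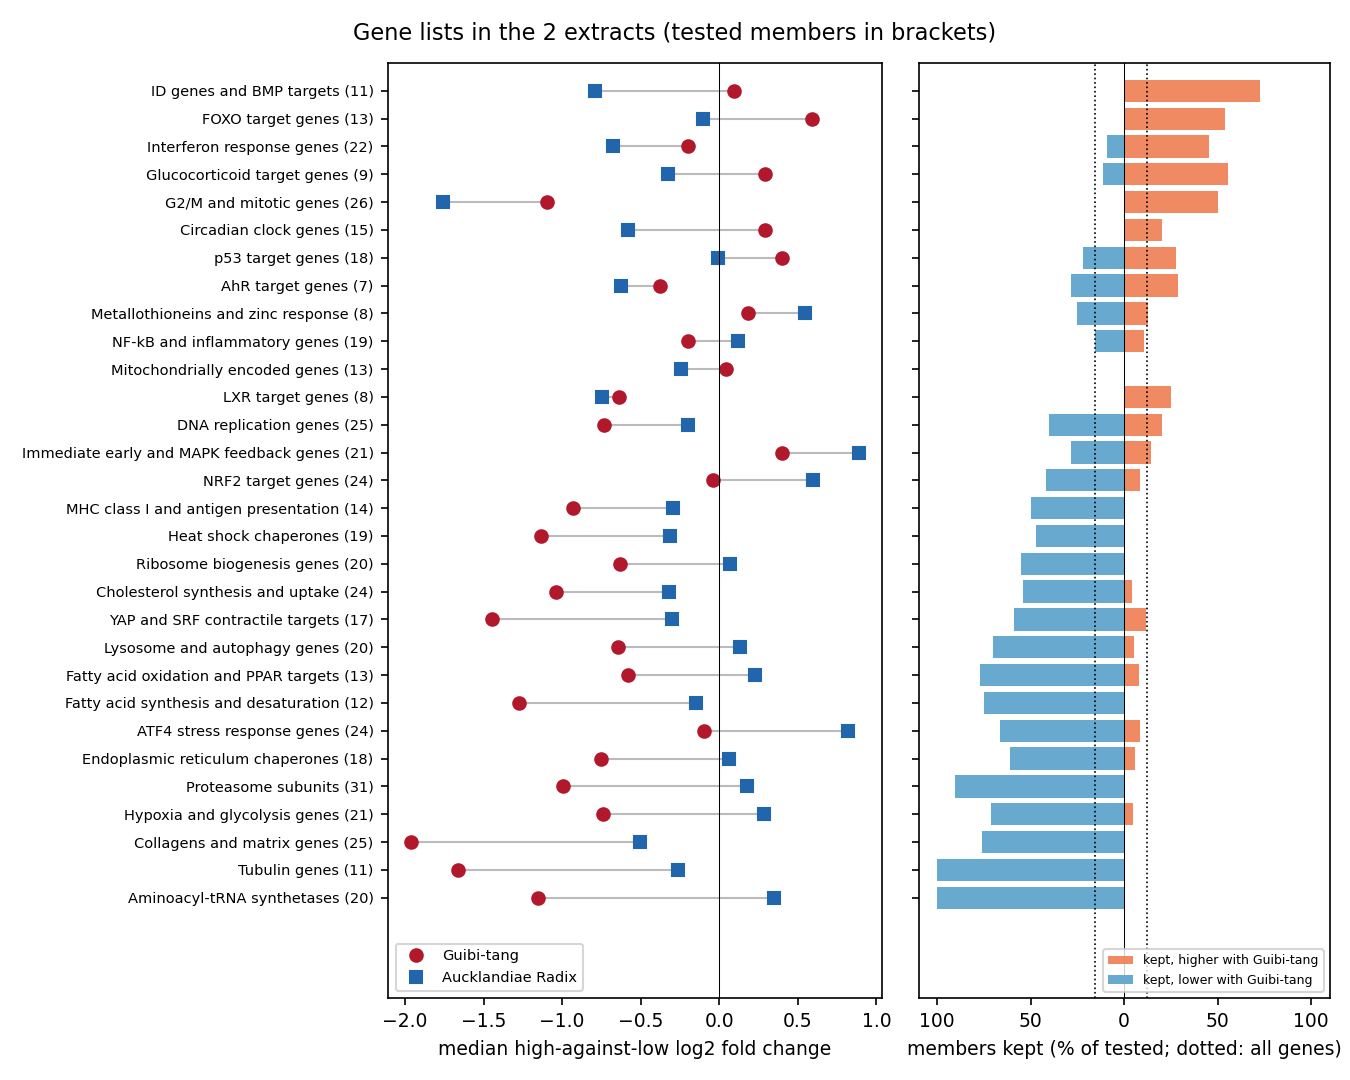
Left, the median log2 fold change from low to high dose of the tested members of each list, with Guibi-tang (red circles) and Aucklandiae Radix (blue squares); right, the percent of tested members kept higher (orange) or lower (blue) with Guibi-tang, with dotted lines at 12.1% and 15.7%, the shares of all genes. All 20 aminoacyl-tRNA synthetase genes and all 11 tubulin genes were kept lower, and 8 of 11 ID and BMP genes were kept higher.

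The aminoacyl-tRNA synthetases, the enzymes that charge transfer RNA with amino acids, were lower with Guibi-tang in every case. All 20 cytosolic members were kept lower, with a median direct log2 difference of -1.52 and a range of -2.94 to -0.95. All 20 fell with Guibi-tang, 10 rose with Aucklandiae Radix, and VARS1 fell with both. The 10 that moved in opposite directions stand beside 2.78% of all genes. All 20 lie in the bin of most abundant genes, and with library totals all 20 were kept lower too, at a median of -1.16. EPRS1, which charges glutamate and proline (chr1:219968601-220046658), was at 49.4, 49.1 and 47.1 CPM with Guibi-tang high and 356 and 386 CPM with Aucklandiae Radix high, and at 231, 204 and 223 CPM and 223 and 220.2 CPM at the low doses. The low-dose libraries lie between the 2 high-dose groups, whose lack of overlap was a condition of the choice of EPRS1. The difference of changes was -2.92 (SE 0.12, adjusted p = 2.69e-20). GARS1, which charges glycine, was at 103, 105 and 104 CPM with Guibi-tang high and 529.6 and 502 CPM with Aucklandiae Radix high, against 207 to 222 CPM in the 5 low-dose libraries. Its difference of changes was -2.33 (SE 0.17, adjusted p = 4.16e-14).

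Other genes of the ATF4 response divided the same way in part. Of 24 tested members 16 were kept lower and 2 higher with Guibi-tang, with a median direct log2 difference of -0.94. With Aucklandiae Radix 16 rose and 1 (STC2) fell. With Guibi-tang 8 rose and 11 fell, and its median change of -0.10 turned to 0.29 with library totals. ASNS, asparagine synthetase (chr7:97852118-97872542), was at 24.9, 22.7 and 23.8 CPM with Guibi-tang high and 171 and 185 CPM with Aucklandiae Radix high, and at 56.5 to 73.03 CPM in the low-dose libraries. Its log2 change was -1.40 (SE 0.12, adjusted p = 1.18e-12) with the formula and 1.63 (SE 0.15, adjusted p = 2.49e-11) with the herb. CHAC1, which degrades glutathione, was at 2.69, 3.53 and 3.47 CPM against 19.5 and 17.5 CPM, with 5.48, 6.49 and 5.89 CPM and 6.66 and 7.05 CPM at the low doses. Its difference of changes was -2.30 (SE 0.26, adjusted p = 4.48e-09). PSAT1 of serine synthesis moved oppositely too, with changes of -1.38 with Guibi-tang and 1.17 with Aucklandiae Radix, as did TRIB3, a pseudokinase that feeds back on ATF4, with -0.54 and 1.53.

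The ATF4 list was not uniform. PHGDH and SHMT2 of serine and glycine metabolism fell with Guibi-tang, with log2 changes of -2.50 and -1.70, and were not called with Aucklandiae Radix, at -0.26 and -0.12. SLC3A2 and SLC7A5, the subunits of a large neutral amino acid transporter, rose with both extracts and were kept lower with Guibi-tang, at direct log2 differences of -0.93 and -0.95. GDF15, a stress cytokine, rose with both and was kept higher with Guibi-tang, at 1.94, and STC2, a secreted glycoprotein, fell with both and was kept higher at 0.33. ATF4 itself rose with both, and its direct log2 difference was -0.24 (SE 0.12, adjusted p = 0.105), which was not called.

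The promoters of ASNS and CHAC1 are shown because these genes moved oppositely and hold letters of the ATF4 composite element, TGATGNAA, in the 250 bases before the start. These are RefSeq sequences of GRCh38.p14, and capitals mark the match, on the strand of the gene in ASNS (chr7:97872409-97872658, minus strand) beginning 68 bases before the start and on the strand opposite to the gene in CHAC1 (chr15:40953221-40953470, plus strand) beginning 209 bases before it.
ASNS: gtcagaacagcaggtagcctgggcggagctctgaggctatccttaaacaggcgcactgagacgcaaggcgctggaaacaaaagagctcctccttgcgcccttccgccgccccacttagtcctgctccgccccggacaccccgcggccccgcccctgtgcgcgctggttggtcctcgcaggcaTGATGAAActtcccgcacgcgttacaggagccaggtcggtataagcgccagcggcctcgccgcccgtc
CHAC1: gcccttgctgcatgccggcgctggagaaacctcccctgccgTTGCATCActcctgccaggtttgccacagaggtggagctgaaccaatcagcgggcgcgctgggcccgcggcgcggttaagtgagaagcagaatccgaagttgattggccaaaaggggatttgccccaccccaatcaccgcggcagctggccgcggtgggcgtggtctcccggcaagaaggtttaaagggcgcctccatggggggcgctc
TGATGNAA was found on either strand in 4 of 21 promoters matched for the ATF4 list and 2 of 16 for the synthetases, against 3.14% of 35116 promoters of the same length in the table. A match is a description of these letters and not a site shown to be bound.

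**Figure D4:**
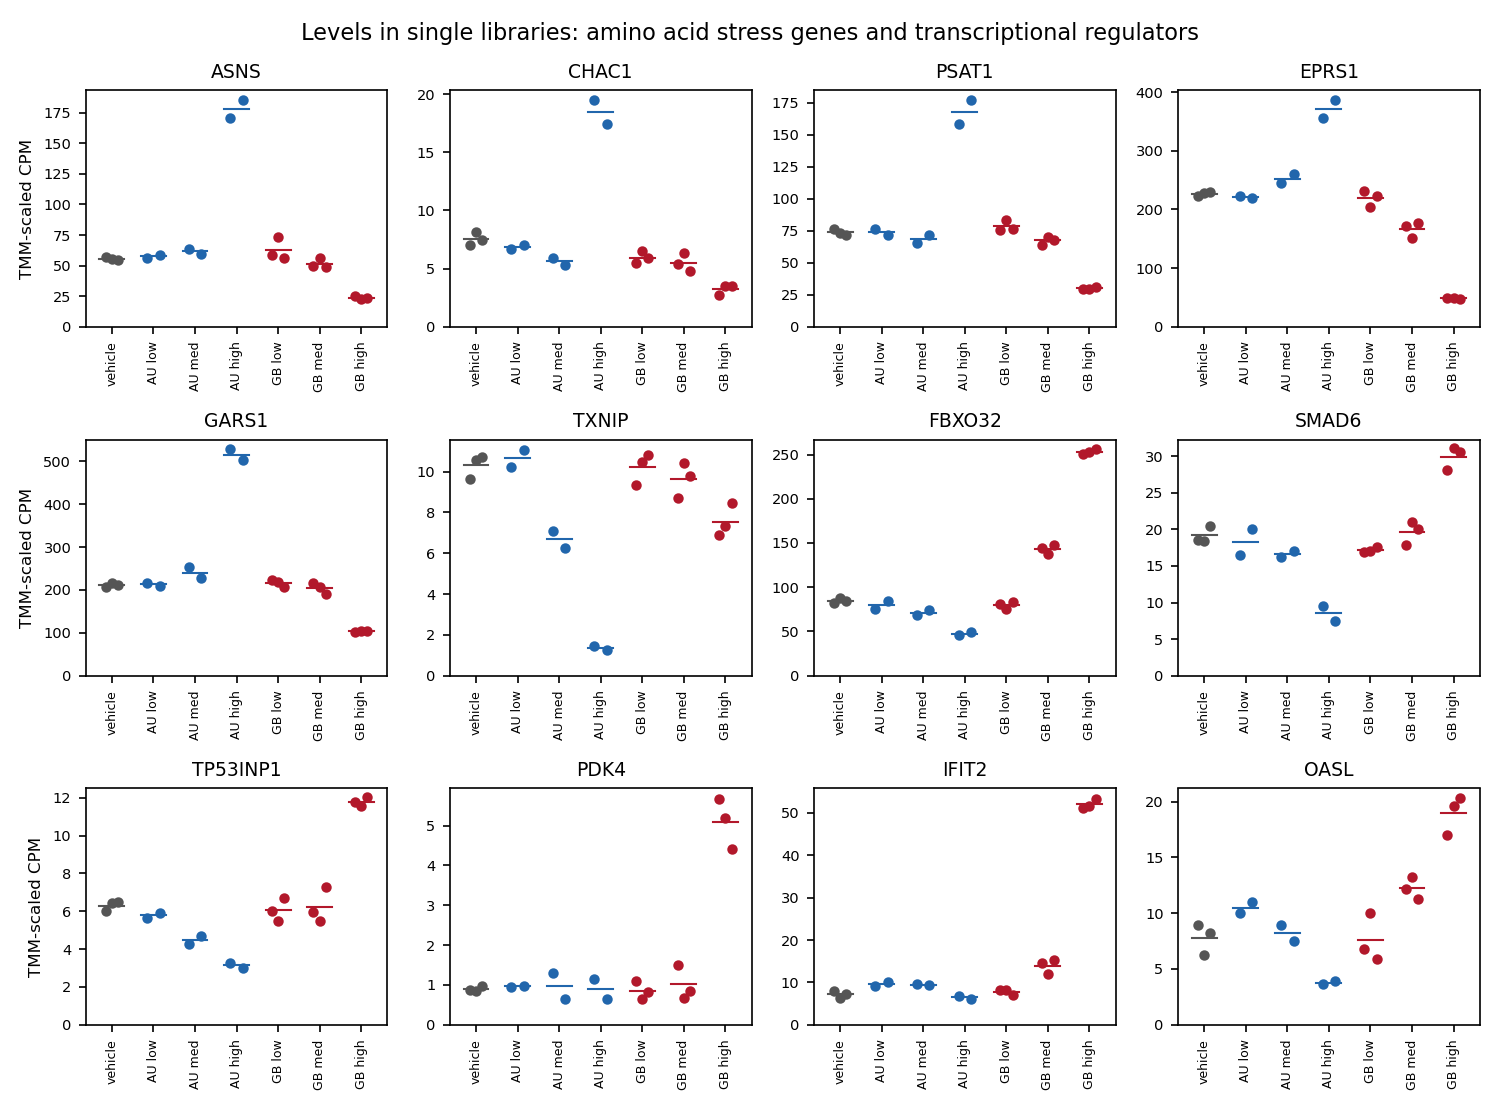
TMM-scaled CPM of 12 genes in single libraries (points) with group means (bars), for vehicle, the 3 doses of Aucklandiae Radix (AU, blue) and the 3 doses of Guibi-tang (GB, red), each panel on its own axis from 0. ASNS, CHAC1, PSAT1, EPRS1 and GARS1 are highest with Aucklandiae Radix high and lowest with Guibi-tang high, and SMAD6, TP53INP1, FBXO32 and OASL show the reverse order.

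Many protein folding and protein breakdown genes were lower with Guibi-tang as well. Of 18 endoplasmic reticulum chaperone genes 11 were kept lower and 1, XBP1, higher, with a median of -1.10. In this list 15 genes lie in the most abundant bin, where 38.9% of genes were kept lower. HSPA5, the main folding chaperone of that compartment, was at 749.6, 758 and 736 CPM with Guibi-tang high and 3399 and 3576 CPM with Aucklandiae Radix high, against 3100.5 to 3328 CPM at the low doses. Only the Guibi-tang high libraries among these 10 are low, and the direct log2 difference was -2.22 (SE 0.11, adjusted p = 7.46e-20). HYOU1, another chaperone of that compartment, had -1.79. Of 19 heat shock genes 9 were kept lower and 0 higher, at a median of -0.64. As 16 of the 19 lie in the most abundant bin, this is near the 38.9% kept lower there. With library totals 6 were kept lower and 1 higher. HSP90AA1, a cytosolic HSP90, was at 279, 275 and 272 CPM with Guibi-tang high and 1607 and 1599 CPM with Aucklandiae Radix high, a direct log2 difference of -2.54 (SE 0.09, adjusted p = 5.73e-24). HSP90AB1 had -1.98, and the paralogs HSPA1A and HSPA1B, which share reads, were not kept, at -0.45 and -0.09.

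Of 31 proteasome subunit genes 28 were kept lower and 0 higher, with a median of -1.15 and all 31 in the most abundant bin. With Guibi-tang 30 fell, and with Aucklandiae Radix 4 rose and 0 fell. PSMD1, a subunit of the regulatory cap, was at 48.3, 49.1 and 48.8 CPM against 169 and 183 CPM, a direct log2 difference of -1.85 (SE 0.10, adjusted p = 8.84e-19). PSMB3, a subunit of the core, had -1.63 (SE 0.29, adjusted p = 1.19e-05). With library totals 22 proteasome genes were kept lower, at a median of -0.80. Of 20 ribosome biogenesis genes 11 were kept lower and 0 higher, at a median of -0.68, with 16 of the 20 in the most abundant bin. RRP12 of ribosome export and NCL, nucleolin, had -1.83 and -1.70.

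Genes of central metabolism followed. Of 21 hypoxia and glycolysis genes 15 were kept lower and 1, ADM, higher, with a median of -1.21. With Aucklandiae Radix 9 of the list rose and 1, EGLN3, fell, while with Guibi-tang 2 rose and 14 fell. GAPDH, a glycolytic enzyme often used as a reference gene, was at 871, 786 and 897 CPM with Guibi-tang high and 4591 and 4478 CPM with Aucklandiae Radix high. Its direct log2 difference was -2.41 (SE 0.21, adjusted p = 2.11e-12), and its change with Aucklandiae Radix 0.04 (SE 0.23, adjusted p = 0.941). ENO1, enolase, had a direct difference of -2.47 (SE 0.19, adjusted p = 6.44e-14). PKM, pyruvate kinase, moved in opposite directions, at 657, 653 and 697 CPM with Guibi-tang high and 5294 and 4895 CPM with Aucklandiae Radix high, against 3195 to 3503 CPM at the low doses, with a difference of changes of -2.86 (SE 0.19, adjusted p = 4.78e-15). NDRG1, a hypoxia-induced gene, moved oppositely too, with -0.58 and 1.41.

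Of 12 fatty acid synthesis genes 9 were kept lower and 0 higher, at a median of -0.84. ACLY, which makes cytosolic acetyl-CoA, and FASN, fatty acid synthase, had direct log2 differences of -1.83 (SE 0.14, adjusted p = 3.89e-14) and -1.80 (SE 0.17, adjusted p = 9.98e-12). Of 24 cholesterol genes 13 were kept lower and 1, INSIG1, higher, at a median of -0.73, led by ACAT2 at -1.40 and NSDHL at -1.23. Fatty acid oxidation genes and PPAR targets had 10 of 13 kept lower and 1 higher. HADHA of mitochondrial beta-oxidation was at 44.99, 43.5 and 45.2 CPM against 209 and 211 CPM, a direct log2 difference of -2.24 (SE 0.08, adjusted p = 3.41e-24).

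2 PPAR targets parted. PDK4, a kinase that slows pyruvate oxidation, was at 5.68, 5.20 and 4.41 CPM with Guibi-tang high and 1.15 and 0.652 CPM with Aucklandiae Radix high, with 0.639 to 1.11 CPM at the low doses. It rose with Guibi-tang by 2.56 (SE 0.31, adjusted p = 4.29e-09) and was not called with Aucklandiae Radix, at -0.10 (SE 0.42, adjusted p = 0.904). ANGPTL4, an inhibitor of lipoprotein lipase, rose with both, to 61.8, 62.2 and 63.4 CPM with Guibi-tang and 272 and 294 CPM with Aucklandiae Radix, from 10.3 to 16.8 CPM. It was kept lower with Guibi-tang, with a difference of changes of -1.76 (SE 0.33, adjusted p = 7.31e-05).

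Among 24 NRF2 targets 10 were kept lower and 2 (TXNRD1 and OSGIN1) higher, at a median of -0.36. With library totals the median was 0.00, and 8 were kept lower and 7 higher. Of the 24, 15 lie in the most abundant bin. The kept lower members include PGD, TKT and TALDO1, enzymes of the pentose phosphate pathway, which supplies NADPH. PGD was at 121, 114 and 121 CPM with Guibi-tang high and 394 and 397 CPM with Aucklandiae Radix high, a direct log2 difference of -1.74 (SE 0.08, adjusted p = 5.15e-21). TKT had -1.40 and TALDO1 -1.16. HMOX1, haem oxygenase 1, rose with both extracts, by 3.23 with Guibi-tang and 4.21 with Aucklandiae Radix, and was kept lower with Guibi-tang at -0.99. GCLC, SRXN1, SLC7A11 and GSR rose with both and were not kept, with direct log2 differences of 0.05, 0.11, 0.24 and -0.01.

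Genes of the matrix and the cytoskeleton were lower with Guibi-tang. Of 25 collagen and matrix genes 19 were kept lower and 0 higher, with a median of -1.37. All 25 fell with Guibi-tang and 11 fell with Aucklandiae Radix, at median changes of -1.96 and -0.51, and 23 lie in the most abundant bin. FN1, fibronectin, was at 621, 580.3 and 650.2 CPM with Guibi-tang high and 2674 and 2614 CPM with Aucklandiae Radix high, with 3968, 2278 and 3816 CPM and 3104 and 3375 CPM at the low doses. Replicate 2 of Guibi-tang low is the lowest of the low-dose libraries, and the direct log2 difference was -2.10 (SE 0.37, adjusted p = 9.41e-06). COL1A1 and COL1A2, the chains of type I collagen, fell with both extracts and were kept lower, at -1.11 and -1.56. All 11 tubulin genes were kept lower, at a median of -1.41, and 9 of them with library totals. TUBB3, a beta-tubulin of neurons and gliomas, moved in opposite directions, at 29.8, 26.9 and 28.5 CPM with Guibi-tang high and 182 and 196 CPM with Aucklandiae Radix high, against 95.2 to 106 CPM at the low doses, with a difference of changes of -2.69 (SE 0.24, adjusted p = 2.57e-11). TUBA1A fell with both, with log2 changes of -2.68 and -1.05.

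Of 17 YAP and SRF targets 10 were kept lower and 2 (LATS2 and SRF) higher. TAGLN, transgelin of actin fibres, was at 54.1, 51.2 and 57.4 CPM with Guibi-tang high and 249 and 249.7 CPM with Aucklandiae Radix high, a direct log2 difference of -2.20 (SE 0.27, adjusted p = 7.17e-09). ANKRD1 had -2.01, while CCN2, a defining YAP target, fell with both and was not kept, at 0.22. Of the 15 astrocyte and glioma markers 8 passed the filter on low counts and 4 were kept lower (VIM, NES, CD44 and SLC1A3). VIM, vimentin (chr10:17228259-17237593), was at 774, 733 and 835 CPM with Guibi-tang high and 5781 and 4312 CPM with Aucklandiae Radix high, against 4781 to 5514 CPM at the low doses, a direct log2 difference of -2.69 (SE 0.10, adjusted p = 2.6e-23). The 15 markers summed to 2155 to 2372 CPM with Guibi-tang high and 7403 to 9139 CPM with Aucklandiae Radix high. With vehicle they summed to 8676 to 8863 CPM. Most of each sum was VIM and CD44, the latter at 955 to 1056 CPM with Guibi-tang high and 2512 to 2734 CPM with Aucklandiae Radix high. SOX9, GJA1, EGFR and the scarce SLC1A2 were not kept. SOX9, GJA1 and EGFR were at 77.2 to 79.4, 154 to 164 and 223 to 241 CPM with Guibi-tang high. With Aucklandiae Radix high they were at 76.6 to 94.7, 182 to 190 and 293 to 328 CPM. The defining astrocyte markers GFAP, AQP4, S100B and ALDH1L1 were at 0 to 0.25 CPM in these groups, that is at or near 0.

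**Figure D5:**
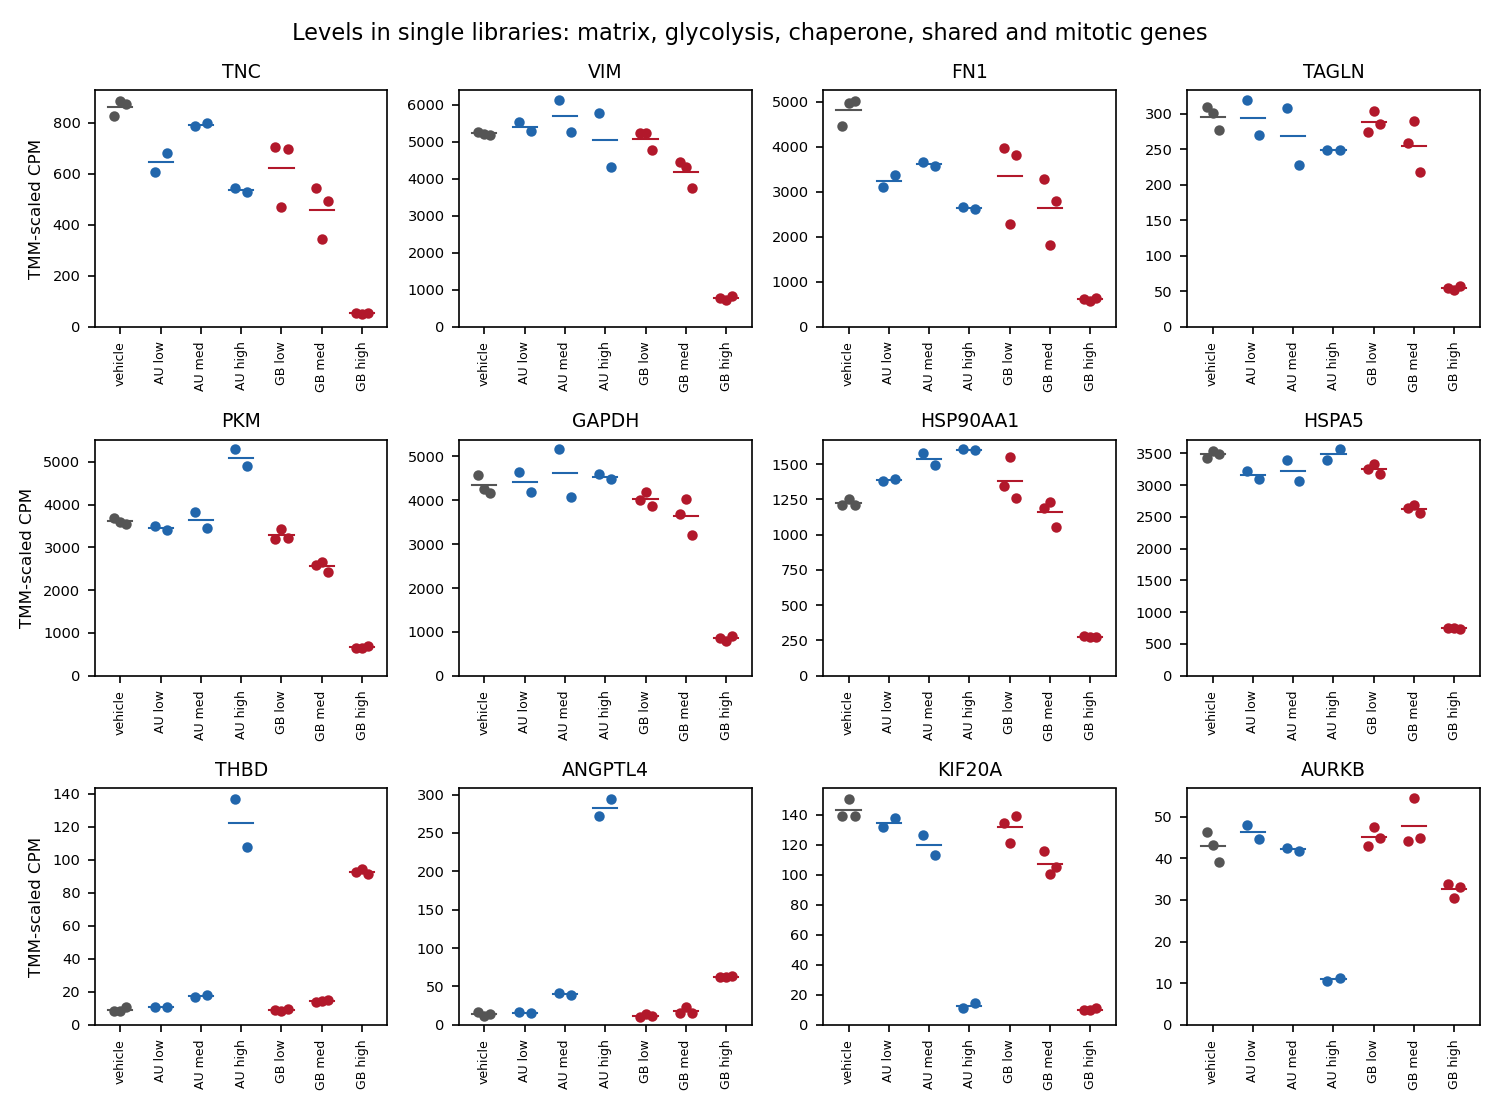
TMM-scaled CPM of 12 genes in single libraries (points) with group means (bars), for vehicle, the 3 doses of Aucklandiae Radix (AU, blue) and the 3 doses of Guibi-tang (GB, red), each panel on its own axis from 0. TNC, VIM, FN1, TAGLN, PKM, GAPDH, HSP90AA1 and HSPA5 are lowest in the 3 Guibi-tang high libraries, THBD is raised and KIF20A lowered by both extracts, and AURKB is lowest with Aucklandiae Radix high.

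Of 11 ID and BMP target genes 8 were kept higher and 0 lower, at a median of 0.85. With Aucklandiae Radix 8 fell and 0 rose, and with Guibi-tang 3 rose and 2 fell. SMAD6, an inhibitor of BMP signalling, was at 28.2, 31.1 and 30.5 CPM with Guibi-tang high and 9.57 and 7.48 CPM with Aucklandiae Radix high, against 16.5 to 20.00 CPM at the low doses. It rose with the formula and fell with the herb, with a difference of changes of 1.90 (SE 0.15, adjusted p = 1.16e-12). ID3, an inhibitor of differentiation, was at 399.6, 379.8 and 391 CPM against 144 and 149 CPM, with a difference of changes of 1.44 (SE 0.31, adjusted p = 0.000421).

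Of 13 FOXO targets 7 were kept higher and 0 lower, at a median of 0.70. TXNIP, an arrestin that lowers glucose uptake, was at 6.88, 7.33 and 8.45 CPM with Guibi-tang high and 1.45 and 1.26 CPM with Aucklandiae Radix high, with 9.34, 10.5 and 10.8 CPM and 10.2 and 11.1 CPM at the low doses. It fell with both, and the direct log2 difference was 2.48 (SE 0.17, adjusted p = 1.44e-15). FBXO32, a ubiquitin ligase of muscle wasting, and SESN3, a sestrin, rose with Guibi-tang and fell with Aucklandiae Radix, at 1.66 and -0.76 for FBXO32 and 0.59 and -1.06 for SESN3. Glucocorticoid targets had 5 of 9 kept higher and 1, ANGPTL4, lower. KLF9, a transcription factor on both lists, was at 87.4, 82.2 and 84.2 CPM against 23.9 and 22.5 CPM, a direct log2 difference of 1.87 (SE 0.22, adjusted p = 1.51e-08). FKBP5, a defining glucocorticoid target, was not kept, at -0.20 (SE 0.18, adjusted p = 0.361).

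Of 15 clock genes 3 (PER1, CRY2 and CIART) were kept higher and 0 lower, and with library totals 9 were kept higher. All 3 rose with Guibi-tang and fell with Aucklandiae Radix. The other 12 were not kept, and 12.1% of all genes were kept higher. CIART was at 23.01, 22.04 and 24.02 CPM with Guibi-tang high and 10.7 and 9.04 CPM with Aucklandiae Radix high, with a difference of changes of 1.28 (SE 0.22, adjusted p = 1.65e-05).

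Interferon-response genes were higher with Guibi-tang in 10 of 22 cases and lower in 2, at a median of 0.64. With Aucklandiae Radix 10 fell and 0 rose, and with Guibi-tang 3 (IFIT2, IFIT3 and OASL) rose and 9 fell. The list's median change with Guibi-tang was -0.20 and turned to 0.19 with library totals. IFIT2, an antiviral RNA-binding protein (chr10:89283694-89309276), was at 51.1, 51.7 and 53.4 CPM with Guibi-tang high, 6.76 and 6.13 CPM with Aucklandiae Radix high and 7.08 to 10.1 CPM at the low doses. Its direct log2 difference was 3.01 (SE 0.23, adjusted p = 7.44e-13). OASL, a relative of the oligoadenylate synthetases, was at 17.00, 19.6 and 20.3 CPM against 3.61 and 3.96 CPM, with a difference of changes of 2.80 (SE 0.40, adjusted p = 6.4e-07). OAS1 was low in all, at 0.655, 0.851 and 1.14 CPM against 0.170 and 0.174 CPM, the latter from 4 counts in each library. ISG15 and BST2, other defining members, were not kept, at -0.60 and -0.55.

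Of the p53 targets 5 of 18 were kept higher and 4 lower on the TMM scale, and 10 higher and 0 lower with library totals. MDM2, the p53 ubiquitin ligase, was kept higher at 0.99, and CDKN1A, which encodes the cell cycle inhibitor p21, was kept lower at -0.82 after rising with both, by 1.27 and 2.04. TP53INP1 rose with Guibi-tang and fell with Aucklandiae Radix, at 11.8, 11.6 and 12.04 CPM and 3.27 and 3.00 CPM, with a difference of changes of 1.84 (SE 0.24, adjusted p = 9.39e-08).

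Mitotic genes fell with both extracts, and many of them were at a higher level with Guibi-tang. Of 26 G2/M genes 25 fell with Guibi-tang and 26 with Aucklandiae Radix, at medians of -1.09 and -1.76. Of the list 13 were kept higher with Guibi-tang and 0 lower, although 21 of the 26 lie in the most abundant bin, where 6.21% of genes were kept higher. With library totals 18 were kept higher. AURKB, the aurora kinase of the chromosomal passenger complex, was at 33.9, 30.6 and 33.2 CPM with Guibi-tang high and 10.6 and 11.2 CPM with Aucklandiae Radix high, against 42.9 to 47.97 CPM at the low doses. Its direct log2 difference was 1.58 (SE 0.18, adjusted p = 8.21e-09). CENPA, the centromeric histone, was at 12.96, 14.3 and 16.6 CPM against 3.95 and 5.39 CPM, a difference of 1.65 (SE 0.17, adjusted p = 1.59e-10). CDK1, the mitotic kinase, had 1.53, and UBE2C was the member not called with Guibi-tang, at -0.24. CCNB1, CDC20 and TOP2A were not kept, with direct log2 differences of 0.26, -0.60 and 0.22.

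The promoters of PLK1, a mitotic kinase kept higher at 0.78, and CCNB2, cyclin B2, at 0.99, are shown because they hold both letter patterns of late cell cycle promoters. Capitals mark CCAAT, the box of the factor NF-Y, and TTTGAA, the core of the cell cycle homology region bound by the DREAM repressor complex. Both are RefSeq sequences of GRCh38.p14 on the plus strand, the 250 bases before the start (chr16:23678639-23678888 for PLK1, chr15:59104896-59105145 for CCNB2).
PLK1: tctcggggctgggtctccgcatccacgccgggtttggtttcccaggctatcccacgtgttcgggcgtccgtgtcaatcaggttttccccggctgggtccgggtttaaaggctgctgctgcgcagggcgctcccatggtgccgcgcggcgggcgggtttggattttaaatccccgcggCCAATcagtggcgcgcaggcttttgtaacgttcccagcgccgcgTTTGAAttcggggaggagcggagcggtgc
CCNB2: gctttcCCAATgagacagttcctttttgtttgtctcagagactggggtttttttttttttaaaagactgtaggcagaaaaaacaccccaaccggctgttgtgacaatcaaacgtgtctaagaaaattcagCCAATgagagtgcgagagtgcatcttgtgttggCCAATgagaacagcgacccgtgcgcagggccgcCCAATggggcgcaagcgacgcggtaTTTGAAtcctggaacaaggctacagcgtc
TTTGAA begins 29 bases before the start in both. On either strand CCAAT was in 17 of 21 matched promoters of the list against 32.0% of all promoters, TTTGAA in 11 against 13.3%, and both in 10 against 4.69%. The matches describe letters in this window and show no binding.

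DNA replication genes act earlier in the cycle. Of 25 tested 10 were kept lower and 5 higher with Guibi-tang, at a median of -0.20 that turned to 0.15 with library totals, where 6 were kept lower and 10 higher. MCM2 to MCM7, the 6 subunits of the replicative helicase, were all kept lower, from -1.33 for MCM6 to -0.48 for MCM7. MCM6 was at 20.5, 21.7 and 18.98 CPM with Guibi-tang high and 48.5 and 54.3 CPM with Aucklandiae Radix high, a direct log2 difference of -1.33 (SE 0.11, adjusted p = 4.13e-13). GINS1, a helicase cofactor, was kept higher, at 52.4, 56.5 and 54.1 CPM against 23.00 and 22.6 CPM, with a difference of changes of 1.26 (SE 0.13, adjusted p = 3.95e-10).

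Of 21 immediate early and MAPK feedback genes 6 were kept lower and 3 higher, at a median of -0.27 that turned to 0.09 with library totals, where 4 were kept lower and 5 higher. EGR1, a transcription factor of growth signalling, was at 29.05, 24.4 and 26.5 CPM with Guibi-tang high and 139.5 and 99.2 CPM with Aucklandiae Radix high, a direct log2 difference of -2.16 (SE 0.37, adjusted p = 5.17e-06), and EGR2 had -2.13. NF-kB and inflammatory genes had 2 of 19 kept higher (IL6 and LIF) and 3 lower (CCL2, NFKB2 and BIRC3), and with library totals 6 were kept higher and 3 lower. CCL2, a monocyte chemokine, had -1.43 (SE 0.15, adjusted p = 1.22e-10), and BIRC3, an inhibitor of apoptosis, -1.42 (SE 0.18, adjusted p = 1.07e-08). Of 14 MHC class I genes 7 were kept lower and 0 higher, led by ERAP1, the peptide trimming enzyme, at -1.57 and HLA-E at -1.30. Of the 14, 9 lie in the most abundant bin, and with library totals 4 were kept lower and 2 higher. HLA genes are near-identical in part, so reads may be split among them.

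Of 20 lysosome genes 14 were kept lower and 1, GABARAPL1, higher, led by the proteases CTSL at -1.37 (SE 0.13, adjusted p = 5.24e-12) and CTSB at -1.18 (SE 0.09, adjusted p = 1.81e-14). With library totals 9 lysosome genes were kept lower. Metallothionein genes, which bind zinc and copper, had 2 of 8 kept lower and 1, MTF1, higher, and the list's medians differ in sign, 0.22 for the direct difference and -0.40 for the difference of changes. MT1E was at 15.3, 13.7 and 14.2 CPM with Guibi-tang high and 50.4 and 47.98 CPM with Aucklandiae Radix high, a direct log2 difference of -1.77 (SE 0.30, adjusted p = 3.87e-06), and MT1X had -1.20, though these near-identical genes may share reads and MT1X lost a call in some settings. AhR targets had 2 of 7 kept higher and 2 lower. CYP1B1, a cytochrome of the AhR response, was kept higher at 1.17 and fell with Aucklandiae Radix, with a log2 change of -1.55, and NQO1, also an NRF2 target, was kept lower at -1.19. LXR targets had 2 of 8 kept higher, MYLIP at 1.23 and ABCG4 at 1.32, and 0 lower. Of the 13 mitochondrially encoded genes 0 were kept in either direction by edgeR with TMM, and 2 were kept higher with library totals.

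The extracts also shared responses. From low to high dose 2741 genes (14.7%) changed in the same direction with both, 1124 rises and 1617 falls, which are 27.7% of the calls of Guibi-tang and 59.0% of those of Aucklandiae Radix. Of these 796 were also kept, 512 with the larger change for Guibi-tang and 284 with the larger change for Aucklandiae Radix. For 397 rises and 362 falls called in neither contrast between extracts, the 95% interval of the difference of changes lay within -0.75 and 0.75. THBD, thrombomodulin, an anticoagulant receptor, had the largest such rise, to 92.4, 94.2 and 91.4 CPM with Guibi-tang high and 137 and 108 CPM with Aucklandiae Radix high from 8.55 to 10.96 CPM at the low doses. The difference of its changes was -0.16, with an interval of -0.68 to 0.37. Its direct log2 difference, -0.40 (SE 0.18, adjusted p = 0.0584), was called in other settings, at -0.39 with DESeq2, -0.43 with the compared groups alone, -0.85 with a transcript-length term added to the fit and -0.56 without Aucklandiae Radix high replicate 3. KCNC4, a potassium channel, was at 24.1, 23.4 and 22.3 CPM and 24.2 and 23.5 CPM, with an interval of -0.11 to 0.61. PLIN2, which coats lipid droplets, rose by 1.86 and 1.97, and BCAR3, a signalling adaptor, by 1.49 and 1.51. The high-dose libraries of the 2 extracts overlap in level for KCNC4 and PLIN2 and do not overlap for THBD and BCAR3.

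Among falls KIF20A, a kinesin of cytokinesis, was at 9.76, 9.79 and 10.9 CPM with Guibi-tang high and 11.5 and 14.2 CPM with Aucklandiae Radix high from 121 to 139 CPM at the low doses, with an interval for the difference of changes of -0.75 to 0.14. CASP1, the inflammatory caspase, fell with both, with log2 changes of -2.44 and -2.41, with an interval of -0.53 to 0.47. PPP2R2B, a regulatory subunit of protein phosphatase 2A, and the kinase STK33 had intervals of -0.38 to 0.55 and -0.66 to 0.30. The direct difference of KIF20A was called with the compared groups alone, at -0.36. These intervals bound the difference and do not show that the responses are equal.

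The medium doses, which the rule did not use, gave small differences. Guibi-tang at 100 µg/mL and Aucklandiae Radix at 32 µg/mL differed in 183 genes (0.984%), 73 higher and 110 lower with Guibi-tang. Of the genes kept higher at the high doses 75.0% lay above 0 at the medium doses, of those kept lower 24.0% did, and of all genes 51.2% did. Of the kept higher genes 49 were called higher and 2 lower, and of the kept lower genes 7 were called higher and 99 lower, beside 0.392% and 0.591% of all genes. Their median medium-dose log2 differences were 0.11 and -0.10. EPRS1 was at 171, 152 and 177 CPM with Guibi-tang and 244 and 259.6 CPM with Aucklandiae Radix, a medium-dose log2 difference of -0.59 (SE 0.09, adjusted p = 4.18e-05). SLCO4A1 had -0.95 (SE 0.11, adjusted p = 9.72e-07) and ANGPTL4 -1.17 (SE 0.24, adjusted p = 0.00385). For ASNS, TNC and IFIT2 the medium-dose values were -0.26, -0.79 and 0.56, which were not called. ANKRD1 was called in the other direction, at 0.71 (SE 0.17, adjusted p = 0.023).

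Markers of other cell types were read as a check of the cell line and moved with the groups in part. Neuron markers, 6 of 8 tested, summed to 29.8 to 30.8 CPM with Guibi-tang high, 33.4 to 35.5 CPM with Aucklandiae Radix high and 57.5 to 60.8 CPM with vehicle. Leukocyte markers, 4 of 8 tested, summed to 2.25 to 2.62 CPM, 4.40 to 4.61 CPM and 13.9 to 14.8 CPM. Endothelial markers, 3 of 6 tested, summed to 26.1 to 30.7 CPM, 22.5 to 23.8 CPM and 37.2 to 41.9 CPM. Epithelial markers, 3 of 6 tested, summed to 23.5 to 24.4 CPM, 78.3 to 94.5 CPM and 142 to 155 CPM, mostly KRT18, a keratin that was kept lower with Guibi-tang at -2.32 (SE 0.22, adjusted p = 2.55e-11). Hepatocyte markers, 2 of 6 tested, summed to 1.28 to 1.82 CPM, 5.61 to 6.26 CPM and 6.40 to 7.34 CPM, mostly SERPINA1 at -2.12. CYP3A4 had counts of 4, 1 and 4 with Guibi-tang high and 0 and 0 with Aucklandiae Radix high, too few for a fold. CSF1R, a leukocyte receptor, was at 1.42, 1.34 and 1.48 CPM and 2.42 and 2.52 CPM, a difference that lost a call in some settings. The part of other cells in the differences above was not tested. In bulk RNA fewer cells of a kind and less RNA per cell cannot be told apart.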

How the data were processed

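Gene-level RSEM expected counts, deposited by the authors and not normalized, were used for 60 libraries. The submitters' processing notes name RSEM 1.3.3, STAR 2.7.3a, FastQC 0.11.9 and Trim Galore 0.6.5 and the build GRCh38 (hg38), with no settings. Expected counts were rounded to whole numbers, and genes were kept by edgeR's filter (minimum count 10, total 15), which left 18601 of 60675. edgeR 4.0.16 (R 4.3.3) with TMM factors and robust quasi-likelihood tests was fitted on all libraries in 25 groups, with 35 residual degrees of freedom, two-sided, adjusted by Benjamini-Hochberg and called under 0.05. Standard errors come from the fitted weights and the moderated quasi-dispersion. Alternatives were DESeq2 1.42.0, RLE factors, other filters, the compared groups alone, a replicate block, and each library left out; library totals and a length-slope covariate were added after seeing the data. The library totals limit the precision of scarce genes, and intervals cover the spread between libraries. On simulated data the kept rule recovered 22.4%, 41.8% and 89.4% of 1.5-, 2- and 4-fold changes, and 0.971% of its calls were on unchanged genes. The simulation changed 67, 67 and 66 genes by these folds, in Guibi-tang high only. All other groups shared 1 mean per gene, with no difference between library sets. The data had far more changed genes and a split that depended on scaling, so the simulated shares need not hold there. The members and gene lists were chosen with earlier results of these data known. Named are the 10 kept genes with the largest direct difference in each direction (mean log2 CPM of 2 or more, groups not overlapping), the 2 kept members of each list with the largest difference, the 4 largest opposite changes of each kind, and the 4 largest shared rises and falls. Some genes that these rules name are not reported here. Other list members were named after their values were seen. Positions are from GENCODE 29 and promoters from RefSeq (GRCh38.p14).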

Additional observations from a re-analysis of the deposited data

Results flagged for a closer look

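Among genes that changed in opposite directions from low to high dose with the 2 extracts, those with the largest difference of changes of each kind are given here, each with a difference tested by edgeR's quasi-likelihood test with Benjamini-Hochberg adjustment. Up with Guibi-tang and down with Aucklandiae Radix were CREG2, with a difference of changes of 2.84, OASL with 2.80 and TCIM with 2.78. Down with Guibi-tang and up with Aucklandiae Radix were ASNS, with -3.03, EPRS1 with -2.92, PKM with -2.86 and TUBB3 with -2.69. All 7 held both calls between extracts in every setting tried. CREG2 was at 11.5, 11.03 and 11.1 CPM with Guibi-tang high and 1.87 and 1.48 CPM with Aucklandiae Radix high, with 4.36 to 5.77 CPM at the low doses. TCIM was at 18.6, 15.2 and 16.7 CPM and 2.47 and 2.48 CPM, with 11.2 to 12.3 CPM at the low doses.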

How the results depend on the processing

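Most named genes kept their direction and their side of the threshold, and counts moved more. Of the 76 named kept genes 71 held both calls in every setting that tested them, and CSF1R, CYP3A4, EIF3CL, FDXR and MT1X lost at least 1. These genes were chosen as the largest differences, which favours holding a call, so they do not stand for all kept genes. Named genes under a mean log2 CPM of 1, such as PDK4, were not tested where such genes were left out. The kept genes numbered 2332 higher and 3045 lower with DESeq2, 2270 higher and 2913 lower with RLE size factors, and 2242 higher and 2901 lower with the replicate number as a block. The numbers were not taken to pair the libraries, since not every pair's correlation of deviations was above 0.1 (between same-numbered Guibi-tang high and low libraries 0.37, 0.32 and 0.05, -0.44 and -0.22 between the high doses, and 0.33 and 0.31 between the low doses), and the replicate block moved no count by more than 1.5 times. With library totals only, chosen after seeing the data, the direct difference called 7165 higher and 2372 lower, the difference of changes 4538 higher and 1567 lower, and 4495 higher and 1551 lower were kept, with 449 opposite changes up and 166 down with Guibi-tang and 1695 shared rises and 1065 shared falls. With each library's transcript-length slope as a covariate, also chosen after seeing the data, the difference of changes called 3916 higher and 5014 lower, 3822 higher and 4957 lower were kept, opposite changes were 531 up and 943 down, and shared changes were 1979 rises and 2701 falls. With the compared groups alone opposite changes were 357 up and 571 down, with 1735 shared rises. With no low-count filter they were 127 up and 143 down. At an adjusted p under 0.01 the difference of changes called 1387 higher, 1381 were kept higher, opposite changes were 115 up and 161 down, and shared rises were 684. With only the same sign asked of the difference of changes 3987 were kept higher. Leaving out 1 library at a time gave 1622 to 2118 kept higher, 2327 to 2809 kept lower, 139 to 209 opposite changes up, 177 to 296 down, 736 to 1102 shared rises and 1193 to 1566 shared falls. Counts moved by over 1.5 times without Aucklandiae Radix high replicate 3 (opposite changes 139 and 190), low replicate 2 (190 down, 736 shared rises) and low replicate 3 (147 and 177); with 1 library left in an arm, it is assumed to vary like the other groups. The cause of these shifts was not tested.

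Among named genes reversals were found only in those chosen for a small difference between extracts, and the others were chosen for large differences. With library totals the direct log2 difference became 0.32 for KCNC4, 0.25 for PLIN2, 0.26 for BCAR3, 0.020 for KIF20A and 0.24 for STK33. The difference of changes became 0.18 for THBD, 0.22 for PLIN2, 0.31 for BCAR3, 0.030 for KIF20A, 0.30 for CASP1 and 0.16 for STK33. With genes under a mean log2 CPM of 1 left out, the direct value of KCNC4 was 0.053, and the difference of changes was 0.061 for BCAR3 and 0.053 for CASP1. With the length covariate CASP1 had 0.11, and PPP2R2B -0.23 for the direct value and -0.20 for the difference of changes. Some of these genes became called between extracts. With the length covariate the direct value was -0.85 for THBD, -0.69 for KIF20A and -0.55 for BCAR3, and the difference of changes -0.60, -0.65 and -0.47. With library totals the difference of changes of KCNC4 was 0.59 and the direct value of CASP1 0.64. With 1 library left out the difference of changes ranged from -0.32 to 0.024 for THBD, -0.056 to 0.014 for BCAR3, -0.37 to 0.41 for CASP1 and -0.024 to 0.12 for PPP2R2B, and the direct value from -0.056 to 0.73 for CASP1 and -0.049 to 0.10 for PPP2R2B. With 2 to 3 libraries a group, low counts limit what can be called, as for CYP3A4.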
